A study of Homo sapiens with 2 samples.

Results

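Fibronectin, tenascin C, versican, the fibrillins and their partners are secreted proteins that build the matrix between cells or modify how cells attach to it. The 10 genes described here, FN1, SPARC, TNC, POSTN, THBS1, VCAN, HAPLN1, FBN1, FBN2 and EMILIN1, were chosen by name, and each was found through its NCBI gene number among the 18518 gene numbers of the deposited tables. RNA had been sequenced from the human embryonic stem cell line H1 in 2 libraries, 1 from wild-type cells and 1 from cells with the genotype label MEIS1-/-, called the MEIS1-/- library here after that label. The protocol, the same for both, used Custom mTeSR1 medium, first 2 days with activinA (40 ng/ml) plus BMP4 (50 ng/ml), next 2 days with VEGF (40 ng/ml) plus bFGF (50 ng/ml). Both cultures were labelled as collected at day 3 of differentiation towards blood, before that second step would have ended. The labels named no clone, no separate cultures and no deleted exon. MEIS1, a homeodomain factor that works with HOX and PBX proteins, had 89 and 68 counts (5.34 and 4.01 FPKM), and the counting interval of that ratio included 1, so the MEIS1 level gave no check of the genotype label.

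With 1 library per genotype there were no replicates and no test. Every difference below is between these 2 libraries and its interval covers counting error only, not the variation between cultures. The estimated read counts were rounded and scaled by effective library size, and totals were 5202847 counts in wild type and 5296397 in the MEIS1-/- library. A gene is called higher or lower in the latter when the exact 95% interval of its ratio excluded 1. Levels of different genes are compared only in FPKM, which is scaled for length and depth. Because these were bulk samples, fewer cells of a type and less RNA per cell cannot be told apart.

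Fibronectin is assembled by cells, through integrins that recognise it, into fibrils on which other matrix proteins are laid down, and embryos need it for mesoderm and blood vessels. Fibrillins form microfibrils that also hold latent TGF-beta and BMP proteins. Matricellular proteins such as tenascin C, periostin, thrombospondin 1 and SPARC change adhesion and signalling more than they bear load, while versican and its link protein HAPLN1 bind hyaluronan in the soft matrix of the early heart and mesenchyme.

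The upstream sequences of the members with the largest differences between libraries, TNC and POSTN in the lower direction and HAPLN1 and THBS1 in the higher, are printed here together with that of FBN2, the member whose upstream sequence held a word typical of MEIS sites. Each is the 250 bases before the RefSeq start in assembly GRCh38.p14, 5′ to 3′ on the gene's strand, whereas the build named in the submitters' processing notes is hg19. Capitals mark 3 words searched on both strands. The word TGACAG is found in many sites bound by MEIS and TGIF proteins. The word GGAATG is typical of TEAD proteins. The word TATAA is the core of many promoters that bind TBP, and only its matches overlapped each other, in POSTN.
TNC, chr9:115118158-115118407, minus strand: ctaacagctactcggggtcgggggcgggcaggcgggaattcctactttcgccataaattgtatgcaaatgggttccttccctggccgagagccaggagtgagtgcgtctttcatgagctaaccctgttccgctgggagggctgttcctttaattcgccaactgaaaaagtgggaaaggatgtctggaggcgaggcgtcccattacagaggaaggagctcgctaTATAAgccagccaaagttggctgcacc
POSTN, chr13:37598769-37599018, minus strand: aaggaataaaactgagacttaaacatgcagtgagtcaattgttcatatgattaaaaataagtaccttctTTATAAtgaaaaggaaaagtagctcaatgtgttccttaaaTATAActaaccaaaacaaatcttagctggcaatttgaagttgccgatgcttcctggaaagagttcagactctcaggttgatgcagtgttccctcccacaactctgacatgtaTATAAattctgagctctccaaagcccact
HAPLN1, chr5:83720856-83721105, minus strand: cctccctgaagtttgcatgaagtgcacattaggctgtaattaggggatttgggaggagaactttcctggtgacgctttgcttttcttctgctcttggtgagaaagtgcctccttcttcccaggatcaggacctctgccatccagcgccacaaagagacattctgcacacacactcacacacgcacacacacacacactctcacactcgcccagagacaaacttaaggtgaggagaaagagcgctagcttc
THBS1, chr15:39580829-39581078, plus strand: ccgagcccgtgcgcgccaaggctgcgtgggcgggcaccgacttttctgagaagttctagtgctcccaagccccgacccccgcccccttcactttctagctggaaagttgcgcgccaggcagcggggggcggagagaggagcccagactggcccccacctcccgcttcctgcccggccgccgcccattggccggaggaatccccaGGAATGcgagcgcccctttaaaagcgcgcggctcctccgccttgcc
FBN2, chr5:128538246-128538495, minus strand: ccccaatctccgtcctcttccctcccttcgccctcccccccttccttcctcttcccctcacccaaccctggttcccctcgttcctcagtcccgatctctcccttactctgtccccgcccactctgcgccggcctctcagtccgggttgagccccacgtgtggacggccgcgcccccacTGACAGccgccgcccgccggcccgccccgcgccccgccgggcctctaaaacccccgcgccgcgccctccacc

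RefSeq upstream sequences were matched for 9 of the 10 genes, all but EMILIN1. TATAA was found upstream of 4 of these 9, FN1, TNC, POSTN and VCAN, and 18.9% of 35116 promoters of the same length held it. In those 4 genes a copy on the gene's strand began between -29 and -26, counted with -1 as the last base before the start. GGAATG or its reverse complement was found upstream of SPARC, THBS1 and FBN1, 3 of the 9, against 11.9% of all promoters. TGACAG was found upstream of FBN2 alone, beginning at -72, against 13.0% of all promoters. With the 50 bases after the start added, the word was found in FBN2 and TNC alone, against 15.8% of all promoters. In TNC it lay on the opposite strand after the start, beginning at base 17 of the transcribed part, in the stretch shown here.
TNC, chr9:115118126-115118151, minus strand: agcctgcctaCTGTCAcccgcctctc
The upstream sequence of HAPLN1, the gene with the largest difference in the higher direction, held none of the 3 words. These matches describe letters in a window and do not show binding. The upstream sequence of POSTN was 36.4% G and C and that of FN1 76.4%, around a median of 58% over all promoters.

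FN1 stood far above the other members in both libraries, and HAPLN1 was next. FN1 was at 1320 FPKM in wild type and 1464 in the MEIS1-/- library, the 9th and 7th highest FPKM of all genes. It held 62.2% and 63.0% of the counts of all 10 genes together. HAPLN1, the link protein that ties versican to hyaluronan, followed at 381 and 678 FPKM, and SPARC, a collagen-binding protein, at 283 and 277 FPKM. FBN2, the fibrillin most used in embryos, came after these at 157 and 123 FPKM. At the other end, FBN1, the fibrillin that prevails after birth, was at 9.26 and 11.6 FPKM, and EMILIN1, a glycoprotein of elastic fibres, at 1.31 and 1.76 FPKM.

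Most neighbours in this order lay further apart than their counting intervals. In wild type, TNC at 112.9 FPKM (109.8 to 116.0) and VCAN at 111.4 FPKM (108.6 to 114.3) could not be ordered. In the MEIS1-/- library, TNC came behind VCAN, and the pair that could not be ordered was THBS1 at 34.0 FPKM (32.0 to 36.2) and POSTN at 33.6 FPKM (30.9 to 36.4). In wild type POSTN, at 66.1 FPKM, had been well above THBS1, at 23.2 FPKM. Among genes with 10 counts or more, the same 6 of the 10 were above the 90th percentile of FPKM in both libraries. POSTN was above it in wild type alone, at percentile 93.3 against 85.4 in the MEIS1-/- library.

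**Figure D1:**
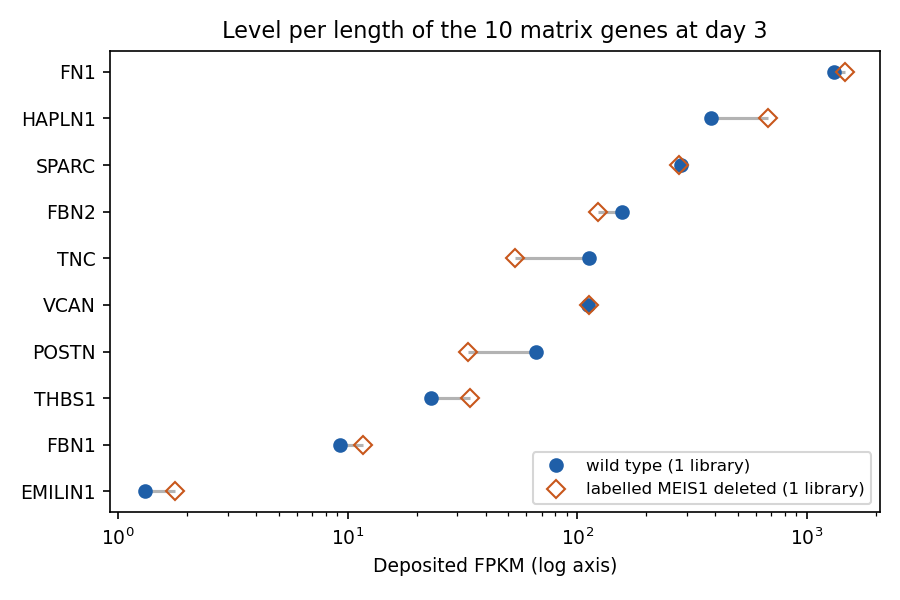
Deposited FPKM (x axis, log scale) of each of the 10 genes (y axis) in the wild-type library (filled circles) and in the MEIS1-/- library (open diamonds), with 1 library per genotype and a grey line joining the values of a gene. FN1 is highest at 1320 and 1464 FPKM and EMILIN1 lowest at 1.31 and 1.76 FPKM, and the longest lines are those of TNC, POSTN and HAPLN1.

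The 10 genes did not move as a block between the libraries. HAPLN1, THBS1, FBN1 and FN1 were higher in the MEIS1-/- library, TNC, POSTN and FBN2 were lower, and SPARC, VCAN and EMILIN1 had intervals that included 1. Thus 4 of 10 were higher, where 15.4% of the 14381 genes compared were, and 3 of 10 were lower, where 14.7% were. Together 7 of 10 had an interval that excluded 1, against 30.1% of all genes compared, which were those that reached 10 counts in either library. An interval of counting error narrows with depth, and most members were deeply counted. Of the 1143 genes that reached 1000 counts in either library, a level chosen after the values were seen, 63.1% had an interval that excluded 1. FBN1 and EMILIN1 did not reach that level, so this share and the 7 of 10 cover unlike sets. Of the members that reached it, only SPARC and VCAN had an interval that included 1.

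By size, only TNC reached 2-fold, in the lower direction, and none did in the higher, where 2.95% and 2.90% of all genes compared did. Of the 1143 genes that reached 1000 counts in either library, 7 were at least 2-fold lower, TNC among them, and 8 higher. At 1.5-fold, HAPLN1 was past the level in the higher direction and TNC and POSTN in the lower, against 5.75% and 6.21% of all genes. The median log2 ratio of the 10 was 0.099, and that of all genes compared 0.0033, and without EMILIN1, the 1 member under 50 counts, the median was 0.042. Summed over the 10 genes, counts were 97696 and 108661, 1.10-fold higher after scaling (1.09 to 1.11), and without FN1 they were 36926 and 40251, 1.08-fold (1.06 to 1.09).

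**Figure D2:**
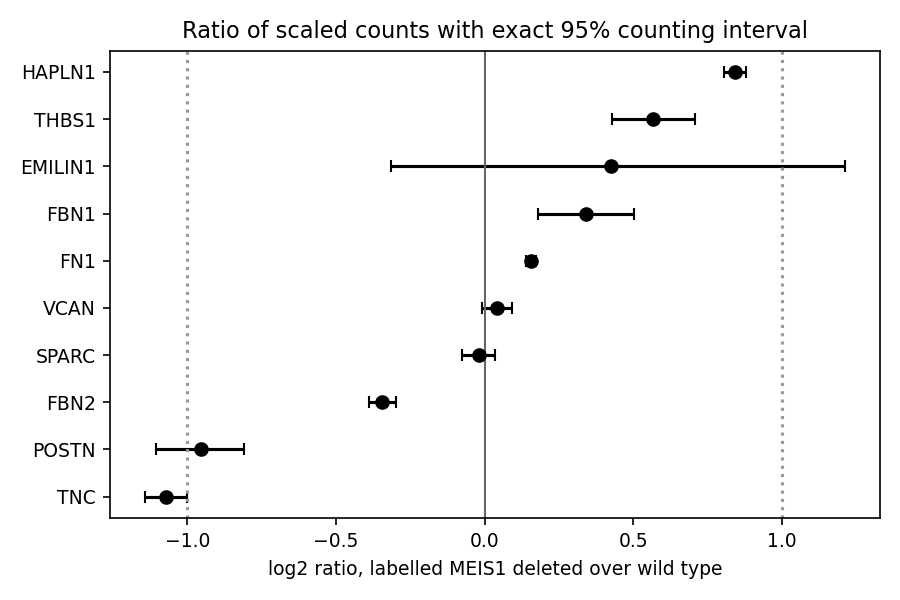
The log2 ratio of scaled counts (x axis), MEIS1-/- library over wild type, for each of the 10 genes (y axis), with bars for the exact 95% counting interval and dotted lines at 2-fold. HAPLN1 is at 0.84 and TNC at -1.07, and the bars of SPARC, VCAN and EMILIN1 cross 0.

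FN1, which encodes fibronectin, was counted 60770 times in the wild-type and 68410 times in the MEIS1-/- library. The ratio was 1.11 (1.10 to 1.13), a small difference with a narrow interval because these counts were high. Fibronectin is bound by integrin pairs made of an alpha and a beta subunit. ITGA5, the alpha subunit of the main fibronectin receptor, went the other way, with 2295 and 1662 counts, 1.40-fold lower (1.31 to 1.49). ITGB1, the beta subunit it pairs with, was counted 11140 and 16763 times and was 1.49-fold higher (1.45 to 1.53).

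Over the list of 13 receptors for fibronectin and matricellular proteins, 11 were compared, 5 of them higher and 2 lower, and for 4 the interval included 1. The median log2 ratio was 0.11, and 0.35 with a minimum of 50 counts. Beside this and the related lists below, 15.4% of all genes compared were higher and 14.7% lower. ITGAV, the alpha subunit of several receptors for fibronectin and related ligands, was 1.27-fold higher (1.22 to 1.32), on 4377 and 5630 counts. ITGA4, the alpha subunit of a second fibronectin receptor, was 2.22-fold higher (1.47 to 3.54), on 32 and 73 counts. CD47, a receptor for thrombospondin 1, was counted 61 and 118 times and was 1.90-fold higher (1.39 to 2.65). STAB1, a scavenger receptor that takes up SPARC, was counted 53 and 121 times and was 2.24-fold higher (1.62 to 3.18). ITGB3, a partner of ITGAV, had 32 and 29 counts, and its interval included 1. ITGB5, a partner with more counts, was counted 1020 and 895 times and was 1.15-fold lower (1.05 to 1.26). ITGA5, ITGAV, ITGB3 and ITGB5 fell outside the rule for named genes and were chosen after their values were seen.

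Among the matricellular members, TNC and POSTN were lower, THBS1 was higher and SPARC was nearly level. TNC, which encodes tenascin C, a protein that loosens the hold of cells on fibronectin, was counted 5101 times in the wild-type and 2452 times in the MEIS1-/- library. That was 2.10-fold lower (2.00 to 2.21). POSTN, which encodes periostin, a protein that helps cross-link collagen and binds integrins, had 1114 and 580 counts, 1.94-fold lower (1.75 to 2.15). So the 2 genes lay near each other in size of difference, with overlapping intervals.

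THBS1, which encodes thrombospondin 1, an inhibitor of new vessel growth and an activator of latent TGF-beta, was counted 706 times in the wild-type and 1057 times in the MEIS1-/- library. It was 1.48-fold higher (1.35 to 1.63). SPARC had 5327 and 5311 counts, a ratio of 0.987 (0.95 to 1.03). The balance therefore shifted between matricellular members, and between TNC and FN1. TNC stood at 0.0855 of FN1 in FPKM in wild type and at 0.0364 in the other library, a ratio of counts that was 2.34-fold lower (2.23 to 2.46). POSTN stood at 0.233 and 0.121 of SPARC, 1.91-fold lower (1.72 to 2.13). THBS1 stood at 0.205 and 0.639 of TNC, 3.11-fold higher (2.80 to 3.47). These pairs, like the 2 given further on, were chosen after the values were seen.

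TGFBI is the closest relative of periostin, and it went the opposite way. It was counted 240 and 636 times and was 2.62-fold higher (2.26 to 3.06). In the list of 21 other matricellular genes, 4 were listed in neither library and 8 were under 10 counts. Of the 9 compared, 4 were higher and 2 lower, for 3 the interval included 1, and the median log2 ratio was 0.41. With a minimum of 50 counts that median was 0.10. SPP1, which encodes osteopontin, an integrin ligand, was counted 704 and 455 times and was 1.56-fold lower (1.39 to 1.76). CCN4, a WNT-induced secreted protein, was counted 49 and 83 times and was 1.66-fold higher (1.16 to 2.44).

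Other paralogues of the matricellular members had lower counts. THBS3 was at 6.56 and 8.89 FPKM and was 1.33-fold higher (1.03 to 1.71), while THBS2 had 6 and 8 counts, THBS4 had 1 and 8, and COMP, also a thrombospondin, was listed in neither table. THBS4 and COMP were chosen after their values were seen. Of the other tenascins, TNR had 9 and 2 counts, TNN 3 and 2, and TNXB 14 and 46. The TNXB count was not whole, so it shared reads with another gene and its ratio is uncertain. SPARCL1, the nearest relative of SPARC, had 14 and 22 counts, with an interval that included 1. Per length, each of these paralogues was below the member it resembles.

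VCAN and HAPLN1 encode proteins that work in one complex, and they lie next to each other on chromosome 5, with 0 protein-coding genes between them in the RefSeq table. HAPLN1 was counted 9326 times in the wild-type and 16901 times in the MEIS1-/- library, 1.79-fold higher (1.75 to 1.84). VCAN, a large chondroitin sulfate proteoglycan, had 5888 and 6124 counts, a ratio of 1.03 (0.993 to 1.07) that included 1, although with DESeq2 size factors its interval was just above 1 (1.003 to 1.08). HAPLN1 was at 3.42 times the FPKM of VCAN in wild type and at 6.0 times in the other library, a change in their ratio of counts of 1.74-fold (1.67 to 1.82).

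Hyaluronan, the polymer both bind, is made by HAS enzymes, and the most abundant of these was lower. HAS2, the main hyaluronan synthase of the embryo, was counted 2813 and 1781 times and was 1.60-fold lower (1.5 to 1.69). CD44, the main hyaluronan receptor, was counted 407 and 839 times and was 2.04-fold higher (1.81 to 2.30). HAS3 had 137 and 118 counts and HYAL2, a hyaluronidase, 218 and 213, and both intervals included 1. Of the 15 genes of the hyaluronan and lectican list, 9 were compared, with 1 higher, 2 lower, 6 that included 1 and a median log2 ratio of -0.048.

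The relatives of VCAN and HAPLN1 had low counts, at most 35 in a library. ACAN had 14 and 18 counts, NCAN 5 and 1, and BCAN 0 and 1, where a count of 0 allows up to 3 counts. HAPLN3 had 26 and 35 counts and HAPLN4 22 and 10, and HAPLN2 was listed in neither table. HAPLN4 was the second gene of this list that was lower, 2.11-fold (1.01 to 5.26).

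FBN1 and FBN2 differed in opposite directions. FBN2 was counted 8868 times in the wild-type and 7061 times in the MEIS1-/- library, 1.27-fold lower (1.23 to 1.31). FBN1 was counted 569 and 728 times and was 1.27-fold higher (1.13 to 1.42). FBN2 stood at 17.0 times the FPKM of FBN1 in wild type and at 10.6 times in the other library, so their ratio of counts was 1.61-fold lower (1.43 to 1.80). FBN3, the third human fibrillin, was counted 317 and 192 times and was 1.66-fold lower (1.39 to 2.01).

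EMILIN1 had 27 and 37 counts, a ratio of 1.34 (0.804 to 2.32), and a difference of this size was not detectable at this depth. Among its relatives, EMILIN2 had 622 and 634 counts and was nearly level, with a ratio of 1.01 (0.902 to 1.13), and EMILIN3 was counted 56 and 20 times and was 2.74-fold lower (1.67 to 4.98). The multimerins, endothelial proteins of the same family, were both higher. MMRN2 was counted 48 and 131 times and was 2.67-fold higher (1.93 to 3.84), though its count was not whole and some reads were shared with another gene. MMRN1 had 0 and 32 counts, at least 10.6-fold higher if wild type is set at the 3 counts that a count of 0 allows and the 32 is taken as exact.

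Of the 23 other microfibril and elastic fibre genes, 22 were compared, with 7 higher, 5 lower, 10 that included 1 and a median log2 ratio of 0.066. Placing MMRN1 at its bound could not move this median, since MMRN1 stayed the highest value. With a minimum of 50 counts the median was 0.019. MFAP4, a protein that binds fibrillin and elastin, was counted 69 and 13 times and was 5.05-fold lower (2.94 to 10.6). MFAP5, a microfibril glycoprotein, was counted 73 and 137 times and was 1.85-fold higher (1.39 to 2.50), with counts that were not whole. ELN, the gene of elastin itself, had 7 and 0 counts, and was chosen after its values were seen.

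**Figure D3:**
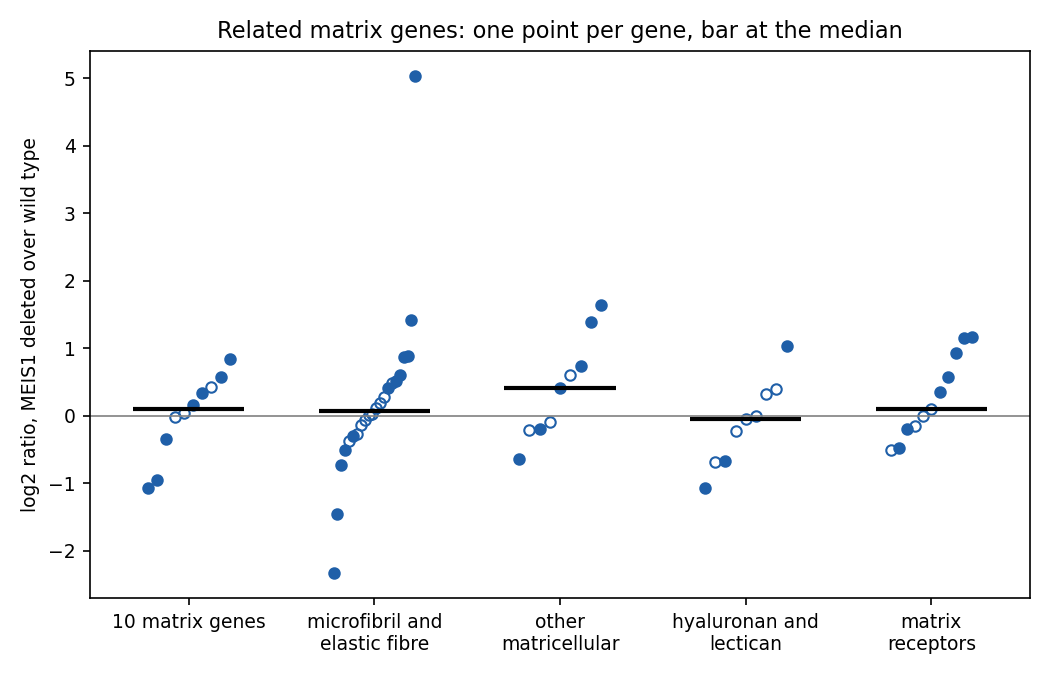
The log2 ratio, MEIS1-/- library over wild type (y axis), of each gene compared in the 10 members and in 4 related lists (x axis), with filled points where the counting interval excluded 1, open points where it included 1 and a bar at the median. The medians are 0.099, 0.066, 0.41, -0.048 and 0.11 from left to right, and the highest point of the microfibril list is MMRN1, with 0 counts in wild type. With a minimum of 50 counts the medians are 0.042, 0.019, 0.10, -0.048 and 0.35.

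The deposited gene length gives a view of the mix of transcripts, since in tables of this layout it is weighted by the abundance of each transcript. Of the members, 3 listed several transcripts and 7 listed 1. FN1, with 6 transcripts, had a length of 8764.4 bases in wild type and 8739.4 in the MEIS1-/- library, a change of -0.28%. VCAN, with 4 transcripts, had 10056.5 and 10128.3 bases, a change of 0.71%, and POSTN, with 4 transcripts, 3233.8 and 3254.0 bases, a change of 0.62%. The tables gave no counts per transcript and no error for these lengths, so which exons differed was not analysed here.

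**Figure D4:**
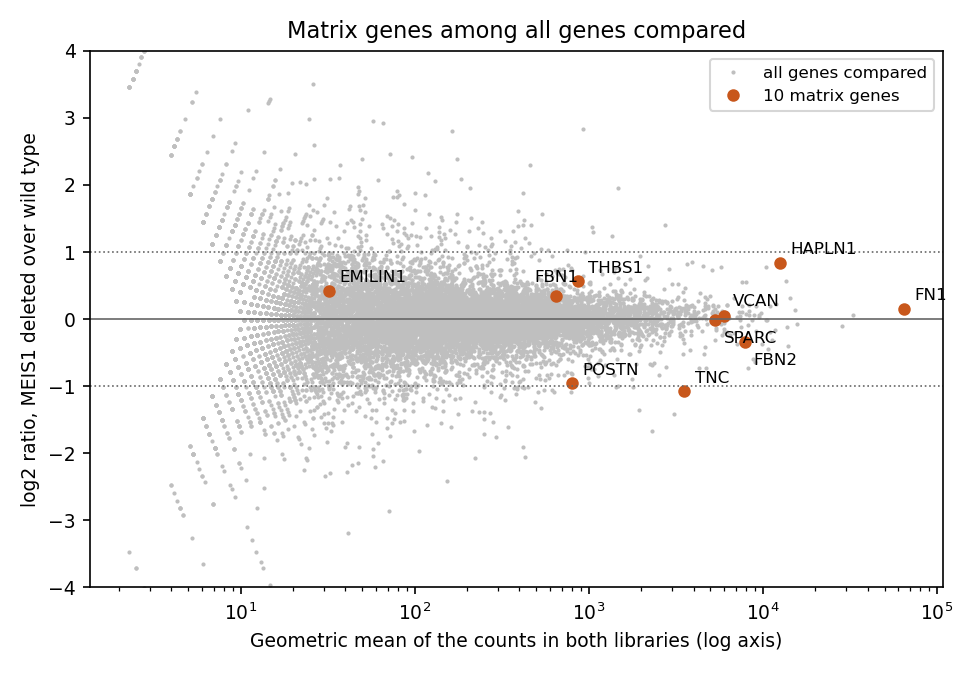
The log2 ratio, MEIS1-/- library over wild type (y axis), against the geometric mean of the counts in both libraries (x axis, log scale) for all genes compared (grey) and the 10 members (orange, named), with dotted lines at 2-fold and 29 grey genes beyond the y axis. HAPLN1 is at 0.84, TNC at -1.07 and POSTN at -0.96, and SPARC and VCAN lie close to 0.

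Markers of several cell types differed between the libraries alongside these matrix genes. Over all genes compared, 15.4% were higher and 14.7% lower. Summed levels cover the whole list of a cell type, with markers under 10 counts included. Of the endothelial markers 11 of 12 were higher and 1, VWF, was lower, with summed levels of 369.8 FPKM in wild type and 607.7 FPKM in the MEIS1-/- library. Most of these sums came from KDR (141.5 and 160.4 FPKM) and FLT1 (165.7 and 291.0 FPKM). All 7 primitive streak markers compared were lower, and MESP2 had 10 and 0 counts. The whole streak list summed to 147.8 and 39.4 FPKM. Of 7 pluripotency markers compared 6 were lower (850.5 and 658.0 FPKM over the whole list). Of 9 fibroblast and smooth muscle markers 5 were higher and 1 lower (576.9 and 740.7 FPKM), and the fibroblast marker DCN was listed in neither table. Of 9 endoderm markers compared 1 was higher and 2 lower (127.0 and 126.6 FPKM over the whole list), and TTR, not compared, had 0 and 5 counts. The part of any of these cell types in the levels of the 10 matrix genes was not tested.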

How the data were processed

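Each genotype gave 1 RNA-seq library, built with an Illumina TruSeq kit on 2 µg of Trizol-extracted RNA per the labels' protocols. The authors deposited for each gene an expected count, which is an estimated count of reads without scaling, an FPKM value scaled for length and depth, and a length, per the file headers. RSEM, Bowtie, BWA and hg19 stood without versions or order in the submitters' processing notes, and the series design text named other steps. Their order is not given in the sources used here.

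Expected counts were rounded, absent genes were set to 0, and TMM effective library sizes (edgeR 4.0.16, R 4.3.3) set the scale. Log2 ratios used a pseudocount of 1, and intervals of a ratio were exact Clopper-Pearson 95% intervals conditional on the sum of both counts. FPKM intervals were exact Poisson intervals of the count. Intervals of a change in the ratio of 2 genes were normal on the log scale. All cover counting error only, and the code was checked on simulated counts. Gene numbers were named through RefSeq tables of GRCh38.p14, where 18413 of 18518 matched. No test between genotypes was possible. The members and lists were chosen with earlier results of these data known. The text names all members, a preset list of paralogues and up to 4 genes of each related list. The latter had the largest absolute ratios at 50 counts or more. Where others were added the text says so, except for KDR, FLT1, VWF, MESP2, DCN and TTR, named from the cell type marker lists. Alternatives covered scaling, pseudocount, rounding, FPKM, minimum count and fold.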

Additional observations from a re-analysis of the deposited data

How the results depend on the processing

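All 80 values of the 10 members under 8 alternatives (3 other scalings, 2 pseudocounts, unrounded counts and FPKM with a pseudocount of 1 or 0.1) stayed within their counting interval and kept their sign, as did all 8 values of MEIS1. TNC ranged from -1.08 to -1.06 and HAPLN1 from 0.83 to 0.86 on the log2 scale. The 4 higher members became 5 with DESeq2 size factors, through VCAN, and otherwise the counts of 4 higher and 3 lower members were the same under the other scalings and with a minimum of 1 or 50 counts. With a level of 1.5-fold, 1 member was higher and 2 were lower, and with 4-fold 0 were lower. Over all genes compared, 417 were at least 2-fold higher and 424 lower. These were 182 and 183 from FPKM with a pseudocount of 1, 161 and 171 with a minimum of 50 counts, 827 and 893 at 1.5-fold, and 111 and 81 at 4-fold. The median of the 10 members, 0.099, was 0.042 with a minimum of 50 counts, and that of the microfibril genes, 0.066, was 0.019 with a minimum of 1 or 50. The median of the other matricellular genes was 0.10 with a minimum of 50 counts, and that of the receptors 0.23 with a minimum of 1 and 0.35 with a minimum of 50, where other genes were compared. No paired analysis was possible because each genotype had 1 library. No library could be left out for the same reason.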
